A study of Mus musculus with 8 samples.

Results

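Wnt3a and 8 genes around it near 59 Mb of mouse chromosome 11 were followed through 8 RNA-seq libraries of sorted lung epithelium. The 9 genes, out of 43432 in the count table, were chosen from measured values of these libraries (low Wnt3a in one genotype) and by their position, so their levels and differences are given below as a description with no test. All 9 matched by symbol, and all 9 were among the 14906 genes that passed the filter on low counts. They are the Wnt ligand genes Wnt3a and Wnt9a, the long noncoding RNA gene 2610507I01Rik, and the protein-coding genes Arf1, Guk1, Mrpl55, Iba57, Snap47 and Jmjd4.

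The libraries came from EpCAM+CD45- lung cells (an epithelial gate without leukocytes) of C57BL/6J mice aged 14 weeks. The C/C mice (n = 2 libraries) carried the ChiaRed allele on both chromosomes and the C/+ mice (n = 3) on one of them. ChiaRed is a reporter of Chia1, the gene of acidic mammalian chitinase (AMCase), and in both groups only the ChiaRed+ cells of the gate were taken. The wild-type mice (WT, n = 3) have no reporter, so the whole gate was taken from them. C/C and C/+ differ in genotype, while either of them differs from WT in genotype and in sorting at once. The labels do not say whether the libraries of a group came from separate animals. C/+ and WT each held libraries of both sexes, read from sex-linked genes, and so came from more than 1 animal each, whereas the spread between the C/C libraries may be technical.

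Wnt proteins are secreted lipid-modified ligands that bind Frizzled receptors with an Lrp5 or Lrp6 co-receptor. In the canonical branch this stabilises beta-catenin, which acts with TCF factors on target genes such as Axin2. In the lung, Wnt signals are known for their part in branching during development and in keeping alveolar type 2 cells in a progenitor state in the adult. Wnt3a is a canonical ligand. Wnt9a is known from joint and liver development, and in mammals the pair Wnt3a and Wnt9a is kept side by side in the genome, head to head.

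In GENCODE M21 on GRCm38, Wnt3a lies on the minus strand of chromosome 11 from 59248033 to 59290752. Wnt9a lies on the plus strand from 59306928 to 59333552, with its start 16.2 kb from that of Wnt3a. Downstream of Wnt3a come Arf1 (59211412 to 59228270, minus strand), Mrpl55 (59202486 to 59206134, plus strand), 2610507I01Rik (59199836 to 59202385, minus strand), Guk1 (59183875 to 59192212, minus strand) and Iba57 (59155369 to 59163739, minus strand). On the far side of Wnt9a lie Snap47 (59407134 to 59451186, minus strand) and Jmjd4 (59450045 to 59458567, plus strand). 2610507I01Rik starts 88.4 kb from Wnt3a, Mrpl55 88.3 kb, Arf1 62.5 kb and Guk1 98.5 kb. Iba57 starts 127 kb, Jmjd4 159 kb and Snap47 160 kb away.

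**Figure D1:**
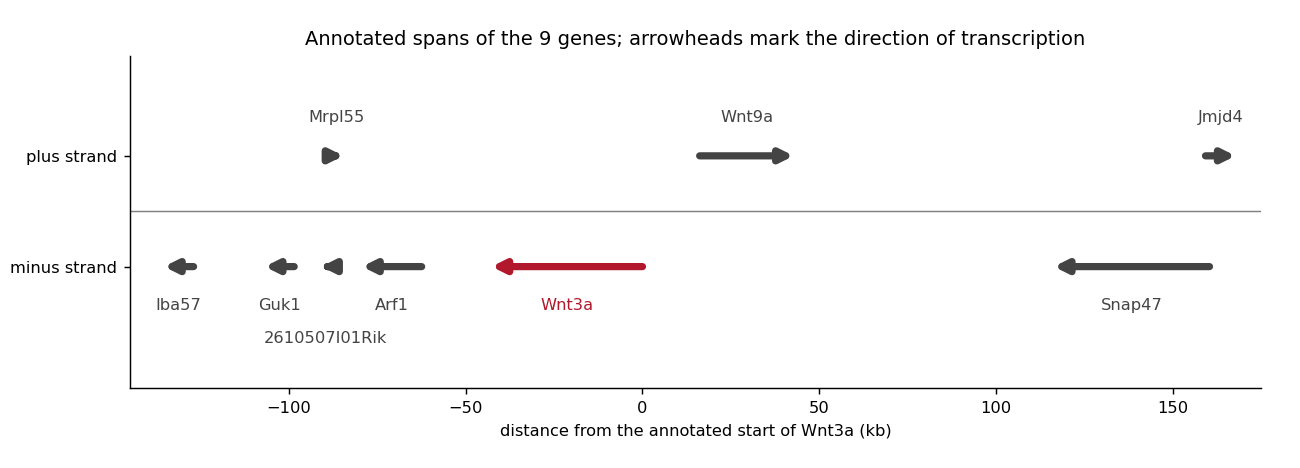
The 9 genes drawn as arrows from their annotated start to their end, against the distance from the start of Wnt3a in kb, with the plus strand above the line and the minus strand below. Wnt3a, in red, and Wnt9a point away from each other, as do 2610507I01Rik and Mrpl55.

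Promoter windows show how the members with the lowest levels in C/C are arranged. Each runs from 250 bases before to 50 bases after the RefSeq start on GRCm38.p6, 5′ to 3′ on the strand of the gene. The windows of both ligands are shown first because these genes neighbour each other and both had their lowest levels in C/C. They are chr11:59290702-59291001, minus strand, for Wnt3a and chr11:59306680-59306979, plus strand, for Wnt9a. Capitals mark the GC box, the letters GGGCGG read on either strand with overlapping copies counted.
Wnt3a: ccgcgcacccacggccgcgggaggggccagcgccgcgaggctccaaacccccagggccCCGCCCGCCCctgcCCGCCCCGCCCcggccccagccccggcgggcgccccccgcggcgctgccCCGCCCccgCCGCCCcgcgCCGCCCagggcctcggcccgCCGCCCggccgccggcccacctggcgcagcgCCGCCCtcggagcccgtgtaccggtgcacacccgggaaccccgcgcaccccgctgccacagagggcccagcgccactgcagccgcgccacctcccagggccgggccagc
Wnt9a: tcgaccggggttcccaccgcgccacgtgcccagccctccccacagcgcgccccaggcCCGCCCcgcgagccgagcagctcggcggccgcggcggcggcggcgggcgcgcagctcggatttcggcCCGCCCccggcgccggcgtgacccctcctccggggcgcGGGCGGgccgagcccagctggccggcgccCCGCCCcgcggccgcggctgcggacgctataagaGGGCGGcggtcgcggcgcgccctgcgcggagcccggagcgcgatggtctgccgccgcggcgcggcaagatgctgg
The Wnt3a window held 9 GC boxes, all on the strand opposite to the gene, and the Wnt9a window 5, of which 2 were on the strand of the gene. Of the 32817 RefSeq windows of this length, 35.6% hold at least 1 GC box, and the share with as many as 5 or 9 was not computed. G and C made up 86.3% of the Wnt3a window and 83.3% of the Wnt9a window, against a median of 52.7% over all windows, and 99.95% and 99.71% of windows had a lower share. The 2 windows held 45 and 58 CpG dinucleotides, against a median of 7.

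The second set of windows is shown because its genes share a promoter region and yet had different levels in C/C. They are chr11:59202382-59202681, minus strand, for 2610507I01Rik and chr11:59202236-59202535, plus strand, for Mrpl55. The annotated spans of the genes lie 100 bases apart and point away from each other. Capitals mark the 154 bases that lie in both windows, once on each strand.
2610507I01Rik: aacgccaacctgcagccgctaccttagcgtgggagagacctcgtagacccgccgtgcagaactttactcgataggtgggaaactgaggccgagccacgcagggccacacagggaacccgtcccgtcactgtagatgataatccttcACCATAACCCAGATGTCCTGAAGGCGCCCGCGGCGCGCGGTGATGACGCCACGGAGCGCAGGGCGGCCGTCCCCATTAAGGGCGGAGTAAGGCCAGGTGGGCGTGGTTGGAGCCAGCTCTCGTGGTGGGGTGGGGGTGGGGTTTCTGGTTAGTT
Mrpl55: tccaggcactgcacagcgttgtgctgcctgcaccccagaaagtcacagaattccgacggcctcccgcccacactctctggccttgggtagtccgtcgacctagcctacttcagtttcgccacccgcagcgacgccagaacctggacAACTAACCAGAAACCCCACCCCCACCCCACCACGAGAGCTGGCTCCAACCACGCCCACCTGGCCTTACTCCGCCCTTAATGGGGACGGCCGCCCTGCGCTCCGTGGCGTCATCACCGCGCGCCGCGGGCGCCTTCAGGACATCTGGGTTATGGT
The GC share was 63% for 2610507I01Rik and 64.7% for Mrpl55, with 2 and 3 GC boxes. None of the 4 windows printed held the CCAAT box (CCAAT, in 37.4% of all windows) or the TATA box (TATAAA, in 13.6%). The E-box CACGTG, in 7.15% of all windows, was in the Wnt9a window once. The core of the TCF motif, CTTTGA, is in 16% of all windows, and among the members it was found in the Jmjd4 window alone. A match is a description of the letters and says nothing of binding, and a missing match says only that these letters are not in the window.

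The libraries held 17057216 to 52319957 counts. Chia1 itself stood at 1.45 and 0.365 CPM in the C/C libraries, 303, 341 and 223 CPM in the C/+ libraries, and 267, 454 and 425 CPM in the WT libraries, where CPM are counts scaled to a common library total with TMM factors. The 10 alveolar type 2 markers, surfactant protein genes among them, summed to 247942 to 251839 CPM in C/C, 213173 to 221965 CPM in C/+ and 183621 to 209961 CPM in WT, which fits the labelled tissue. Most of each sum was Sftpc, while 4 of the 10 (Abca3, Slc34a2, Etv5 and Lpcat1) had their lowest mean in C/C and their highest in WT. The share of all tested genes in that order was not computed. The neuroendocrine and basal lists summed to at most 4.24 and 1.18 CPM in each library. The alveolar type 1 sum, mostly Ager, overlapped between the groups, but 3 of its 8 markers were called by edgeR in some of the comparisons. Pdpn was lower and Rtkn2 higher in C/C than in C/+, Clic5 lower in C/C than in WT, and Rtkn2 lower in C/+ than in WT. Over all tested genes the shares called were 7.08% in C/C against C/+, 2.98% in C/C against WT and 3.92% in C/+ against WT. Without C/C 1 or without C/C 2, 0 alveolar type 1 markers were called in C/C against either group. Ptprc, which encodes CD45, averaged 0.217 CPM in C/C, 0.762 CPM in C/+ and 0.820 CPM in WT, while the leukocyte list as a whole summed to 37259 to 39852 CPM in C/C, 35304 to 39350 CPM in C/+ and 29517 to 33948 CPM in WT, nearly all of it Lyz2, which mouse alveolar type 2 cells express too. Reads of the Y-linked gene Ddx3y put C/+ 1, WT 2 and WT 3 as male and the other 5 libraries as female. Immediate early genes, which answer stress and handling, summed to 12972 to 16589 CPM in C/C, 4208 to 6977 CPM in C/+ and 3214 to 9397 CPM in WT over the 16 genes of the list. In bulk RNA, fewer cells of a type and less RNA per cell cannot be told apart, and this holds for each level below.

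Wnt3a was near the floor in C/C and lower in C/+ than in WT. It had 9 and 9 counts in the C/C libraries, 94, 145 and 21 counts in the C/+ libraries, and 483, 217 and 500 counts in the WT libraries. Scaled, this was 0.207 and 0.235 CPM in C/C, 3.07, 6.76 and 1.24 CPM in C/+, and 12.5, 10.3 and 9.30 CPM in WT. The 3 groups did not overlap, and the order was C/C, then C/+, then WT from low to high. How many of all tested genes have groups without overlap was not computed, here or for the genes below. The group means were 0.221 ± 0.0198 CPM in C/C (SD, n = 2), 3.69 ± 2.82 CPM in C/+ and 10.7 ± 1.63 CPM in WT (SD, n = 3 each). C/+ had the widest spread, with C/+ 2 highest and C/+ 3 lowest.

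The fitted log2 difference of Wnt3a was −4.05 (SE 0.66) for C/C against C/+, a level 16.6-fold lower in C/C. For C/C against WT it was −5.58 (SE 0.672), 47.8-fold lower in C/C. For C/+ against WT it was −1.52 (SE 0.437), 2.88-fold lower in C/+. From the most negative difference upwards, Wnt3a was number 342, 45 and 63 of the 14906 tested genes in these comparisons. The Poisson interval of C/C 1 (95%, exact, counting error only) ran from 0.0944 to 0.392 CPM and that of C/C 2 from 0.107 to 0.445 CPM. The lowest C/+ library, C/+ 3, had an interval of 0.765 to 1.89 CPM, and the lowest WT library, WT 3, one of 8.50 to 10.1 CPM. These intervals leave out the spread between libraries, and Wnt3a was chosen for its low C/C level, so comparing them is no test.

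Within the female libraries Wnt3a stood at 0.207 and 0.235 CPM in C/C, 6.76 and 1.24 CPM in C/+, and 12.5 CPM in WT 1, the only female WT library. The order had to be the same, since groups that do not overlap keep their order in any subset. Other cell types moved with the C/+ group. The 10 club cell markers summed to 467 to 692 CPM in C/C, 5139 to 9686 CPM in C/+ and 433 to 1091 CPM in WT. The 10 endothelial markers summed to 52.6 to 58.9 CPM in C/C, 501 to 864 CPM in C/+ and 67.5 to 257 CPM in WT. The 6 mesothelial markers summed to 6.05 to 7.07 CPM in C/C, 59.3 to 180 CPM in C/+ and 8.01 to 27.5 CPM in WT. The 9 mesenchymal markers summed to 14.2 to 18.0 CPM in C/C, 81.9 to 223 CPM in C/+ and 16.4 to 41.4 CPM in WT. No marker of these 4 lists was at 0 in all libraries of a group. Each of these 4 sums was highest in C/+, and Wnt3a was highest in WT. The mean was lowest in C/C, as for Wnt3a, for all 10 club, 10 endothelial and 6 mesothelial markers and for 8 of the 9 mesenchymal markers. How many of all tested genes have their lowest mean in C/C was not computed, here or for the ciliated markers below. By edgeR, 8 of 9 tested club and 10 of 10 endothelial markers were called lower in C/C than in C/+. So were 6 of 6 mesothelial and 6 of 9 mesenchymal markers, beside 7.08% of all tested genes. Against WT, 1, 1, 0 and 0 of these lists were called, lower in C/C, beside 2.98%.

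The ciliated cell markers included genes in the order of Wnt3a. Of the 8, 6 (Foxj1, Ccdc153, Rsph1, Tekt1, Dnah5 and Ccdc39) had their lowest mean in C/C and their highest in WT, with both C/C libraries below all others, while Tppp3 and Dynlrb2, which make up most of the ciliated sum, did not. Foxj1, the master regulator of motile cilia, stood at 4.36 and 5.13 CPM in C/C, 20.8, 8.72 and 6.53 CPM in C/+, and 16.8, 17.6 and 19.6 CPM in WT. C/+ 1 was the highest library of Foxj1. Wnt3a was highest in WT 1, and C/+ 2 was the highest C/+ library of Wnt3a. By edgeR's quasi-likelihood test, 1 of the 8 was called in C/C against C/+ (Ccdc39, adjusted p = 0.0307) and 2 in C/C against WT (Ccdc39, adjusted p = 0.0354, and Foxj1, adjusted p = 0.0392), each lower in C/C. In C/+ against WT the 8 had adjusted p of 0.376 to 0.94 by edgeR. DESeq2 called 5 of them in C/C against C/+ and 5 in C/C against WT, beside 1609 and 1476 of all 14906 tested genes. For edgeR the shares over all tested genes were 7.08% and 2.98%. The edgeR count in C/C against either group was 0 without C/C 1 or without C/C 2, in C/C against C/+ also without C/+ 1, and in C/C against WT also without WT 2 or without WT 3. The part of any of these cell types in the levels of Wnt3a was not tested.

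**Figure D2:**
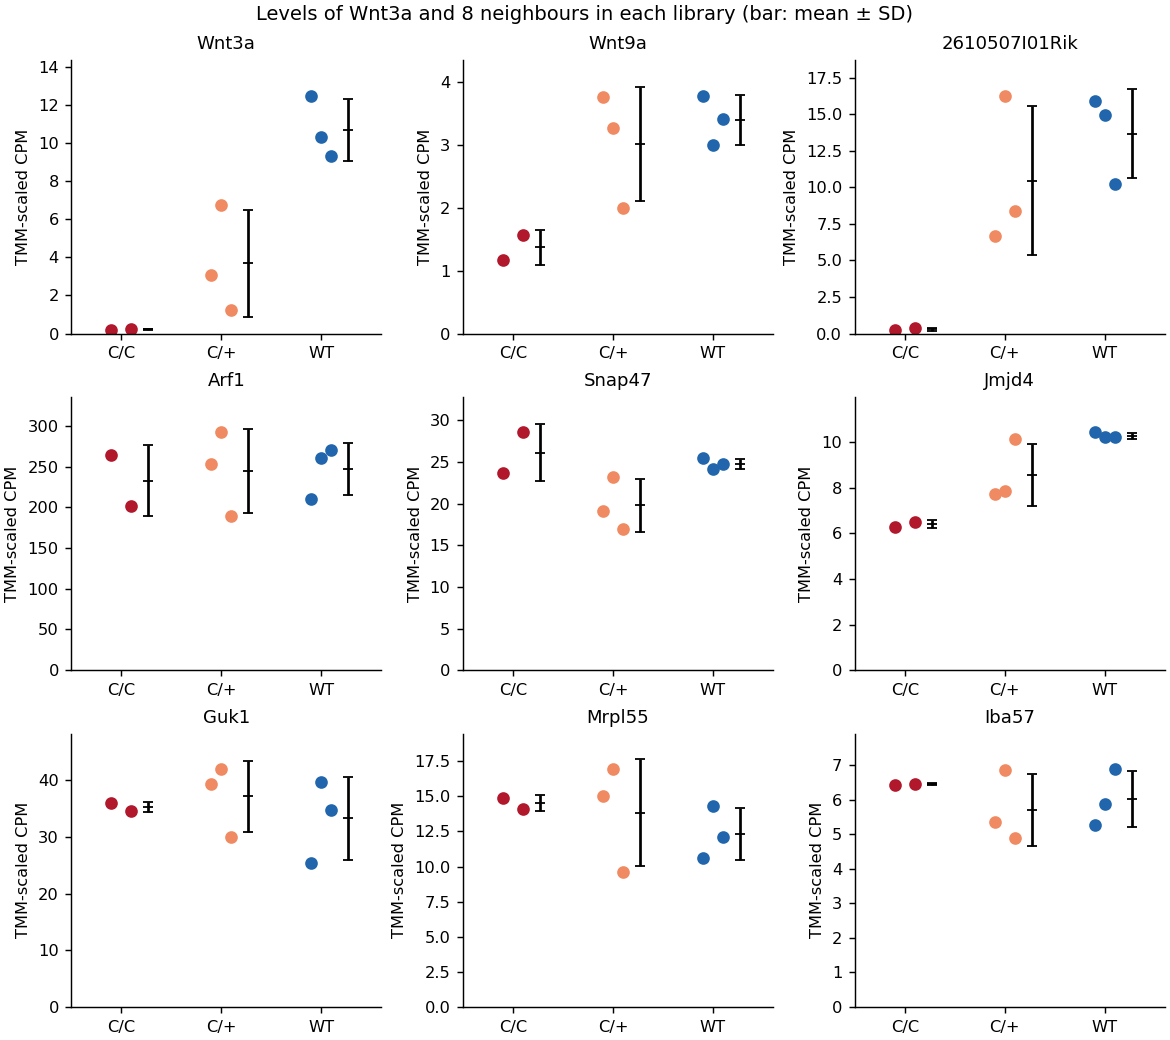
Levels of the 9 genes in TMM-scaled CPM on linear axes from 0, 1 point per library, with C/C in red, C/+ in orange and WT in blue, and the mean ± SD of each group beside its points. Wnt3a, 2610507I01Rik, Wnt9a and, by a small step, Jmjd4 sit lowest in C/C, whereas the groups overlap for Arf1, Guk1, Mrpl55 and Iba57.

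2610507I01Rik, the noncoding RNA, was the member closest to Wnt3a. It had 9 and 14 counts in the C/C libraries, 205, 349 and 143 in the C/+ libraries and 615, 315 and 549 in the WT libraries. Scaled, this was 0.207 and 0.365 CPM in C/C, 6.69, 16.3 and 8.41 CPM in C/+, and 15.9, 14.9 and 10.2 CPM in WT. Both C/C libraries lay far below all 6 others, while C/+ and WT overlapped, since C/+ 2 was the highest of all 8. The group means were 0.286 ± 0.112 CPM in C/C (SD, n = 2), 10.5 ± 5.11 CPM in C/+ and 13.7 ± 3.05 CPM in WT (SD, n = 3 each).

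The log2 difference of 2610507I01Rik was −5.19 (SE 0.501) for C/C against C/+, 36.5-fold lower in C/C. For C/C against WT it was −5.58 (SE 0.503), 47.7-fold lower in C/C and next to that of Wnt3a in the order of all tested genes, where the 2 were numbers 46 and 45. For C/+ against WT it was −0.39 (SE 0.313), within the spread of the libraries. The genes thus had nearly the same difference between C/C and WT and unlike ones between C/+ and WT. Per 100 reads of 2610507I01Rik there were 100 and 64.3 reads of Wnt3a in the C/C libraries, 45.9, 41.5 and 14.7 in the C/+ libraries, and 78.5, 68.9 and 91.1 in the WT libraries. The C/+ libraries had the lowest of these ratios, with no overlap with C/C or WT, although those of C/C rest on 9 to 14 counts a gene.

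Mrpl55, which encodes a subunit of the mitochondrial ribosome and starts on the other side of the shared window, showed no such pattern. It stood at 14.9 and 14.1 CPM in C/C, 15.0, 16.9 and 9.59 CPM in C/+, and 10.6, 14.3 and 12.1 CPM in WT. The C/C libraries lay inside the range of C/+ and overlapped that of WT. Its log2 differences were 0.06 (SE 0.222) for C/C against C/+, 0.24 (SE 0.221) for C/C against WT and 0.18 (SE 0.201) for C/+ against WT. Per 100 reads of Mrpl55 there were 1.38 and 2.59 reads of 2610507I01Rik in the C/C libraries, 44.6, 96.1 and 87.7 in the C/+ libraries, and 150, 105 and 84.3 in the WT libraries. This ratio within a library needs no scaling between libraries, and it was lowest in both C/C libraries.

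Wnt9a was lower in C/C too, by a smaller step. It stood at 1.17 and 1.56 CPM in C/C (51 and 60 counts), 3.75, 3.27 and 2.00 CPM in C/+ (115, 70 and 34 counts), and 3.77, 2.99 and 3.40 CPM in WT (146, 63 and 183 counts). Both C/C libraries were below all others, and C/+ and WT overlapped. The log2 difference was −1.15 (SE 0.336) for C/C against C/+, 2.22-fold lower in C/C, and −1.31 (SE 0.335) for C/C against WT, 2.48-fold lower in C/C. For C/+ against WT it was −0.16 (SE 0.286). In the order of all tested genes from the most negative difference, Wnt9a was number 1653 in C/C against C/+ and 961 in C/C against WT. The lowest C/+ library rests on 34 counts, whose Poisson interval of 1.38 to 2.79 CPM overlaps the 1.19 to 2.01 CPM of C/C 2.

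Jmjd4, an oxygenase that hydroxylates a translation termination factor, and Snap47, a SNARE protein of membrane fusion, form a further divergent gene arrangement of the region. Jmjd4 stood at 6.26 and 6.52 CPM in C/C, 7.70, 7.84 and 10.1 CPM in C/+, and 10.4, 10.2 and 10.2 CPM in WT. Its groups did not overlap, in the same order as for Wnt3a, but over a small range. The share of all tested genes with this order was not computed. The log2 difference was −0.42 (SE 0.175) for C/C against C/+, −0.69 (SE 0.174) for C/C against WT and −0.27 (SE 0.155) for C/+ against WT. Snap47 stood at 23.7 and 28.5 CPM in C/C, 19.2, 23.2 and 16.9 CPM in C/+, and 25.4, 24.2 and 24.7 CPM in WT. C/+ was below both other groups with no overlap, by a log2 difference of 0.40 (SE 0.148) for C/C against C/+ and −0.32 (SE 0.135) for C/+ against WT, while C/C and WT overlapped.

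Per 100 reads of Snap47 there were 26.4 and 22.8 reads of Jmjd4 in the C/C libraries, 40.2, 33.7 and 59.7 in the C/+ libraries, and 41.0, 42.2 and 41.3 in the WT libraries. In GENCODE M21 the spans of these genes overlap by 1142 bases on opposite strands, and the strand setting of the counting is not given in the sources used here, so reads of that stretch may have been split between them or dropped. Their RefSeq promoter windows share 110 bases.

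Arf1, Guk1 and Iba57 lie on the same side of Wnt3a as 2610507I01Rik and had overlapping groups in all 3 comparisons. Arf1, a small GTPase of coat assembly at the Golgi, stood at 264 and 202 CPM in C/C, 253, 292 and 189 CPM in C/+, and 211, 260 and 271 CPM in WT. Its log2 differences were −0.07 (SE 0.189) for C/C against C/+, −0.09 (SE 0.189) for C/C against WT and −0.02 (SE 0.169) for C/+ against WT. Guk1, guanylate kinase, averaged 35.2 ± 0.937 CPM in C/C (SD, n = 2), 37.1 ± 6.26 CPM in C/+ and 33.3 ± 7.26 CPM in WT (SD, n = 3 each). Iba57, which takes part in mitochondrial iron-sulphur cluster assembly, averaged 6.44 ± 0.0275 CPM in C/C (SD, n = 2), 5.70 ± 1.03 CPM in C/+ and 6.01 ± 0.811 CPM in WT (SD, n = 3 each). The differences of Guk1 and Iba57 lay between −0.08 and 0.18 on the log2 scale, with SE of 0.17 to 0.214. Of the other genes between 2610507I01Rik and Arf1 beside Mrpl55, the tested one, 2310033P09Rik, averaged 13.1 CPM in C/C, 14.2 CPM in C/+ and 12.0 CPM in WT.

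Compared per length, as CPM per kilobase of annotated exon, Arf1 was the highest of the 9 in each group, at 111 in C/C, 117 in C/+ and 118 in WT. Guk1 followed at 19.2 in C/C, 20.2 in C/+ and 18.1 in WT, then Mrpl55 at 14.1 in C/C, 13.5 in C/+ and 12.0 in WT. 2610507I01Rik was at 0.210 in C/C, 7.69 in C/+ and 10.1 in WT, so that in WT it came close to Mrpl55, whose range it overlaps there, and to Snap47 at 9.35. Wnt3a was at 0.0799 in C/C, 1.34 in C/+ and 3.87 in WT, and it was the lowest of the 9 in C/C. Wnt9a was at 0.411 in C/C, 0.903 in C/+ and 1.02 in WT. The more abundant ligand was thus Wnt3a in WT and Wnt9a in C/C, while in C/+ the 2 differed by less than the SD of Wnt3a of 1.02.

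Several members had their lowest or highest C/+ level in the same library. C/+ 3, the library with the fewest counts, was the lowest of the C/+ libraries for 7 of the 9 genes, and C/+ 2 was the highest of them for 7. The shares over all tested genes were not computed, so these counts show nothing particular to the 9 genes. Arf1, Snap47, Mrpl55 and Iba57 had their lowest value of all 8 libraries in C/+ 3. Jmjd4 was the exception in the other direction, with its highest C/+ value in C/+ 3.

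**Figure D3:**
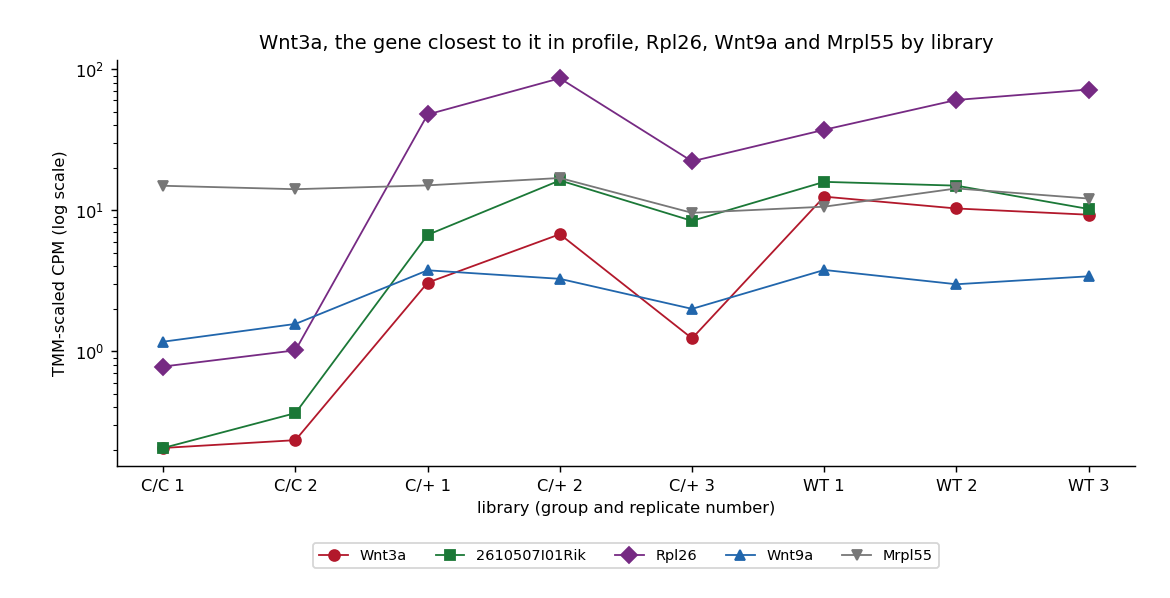
TMM-scaled CPM on a log axis for Wnt3a, 2610507I01Rik, Rpl26, Wnt9a and Mrpl55 in the 8 libraries, joined by lines for reading only. Wnt3a, 2610507I01Rik and Rpl26 drop to their lowest in both C/C libraries and are lower in C/+ 3 than in C/+ 2, whereas Mrpl55 stays between 9.59 and 16.9 CPM.

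To see which genes follow Wnt3a, each tested gene was centred on the log2 scale (prior count 2), and its root-mean-square difference to Wnt3a over the 8 libraries was ranked among 14905 genes. 2610507I01Rik was the nearest, at 0.82. Wnt9a came at 1.60 (rank 235), Jmjd4 at 1.91 (rank 1057) and Arf1 at 2.06 (rank 4022). Snap47, Guk1, Iba57 and Mrpl55 came at ranks 7458, 7697, 7768 and 9054. Outside the 9 genes the nearest were Rpl26 at 0.968, on chromosome 11, Pik3cd at 1.08, Dnah12 at 1.12, Gm20661 at 1.14 and Rbm24 at 1.18, the last 4 on other chromosomes. Rpl26 encodes a ribosomal protein, Pik3cd the delta catalytic subunit of PI 3-kinase and Dnah12 an axonemal dynein heavy chain. The measure describes the shape over 8 libraries that share depth and sorting, and genes with large swings are nearer to Wnt3a by construction. When each gene was divided by its SD, 2610507I01Rik came at rank 29 and 0 of the 5 outside genes stayed among the nearest 5. The outside genes depended on other choices too. Of the 5, 1 stayed without C/C 1, 1 without WT 1, 2 without WT 2 and 2 with a prior count of 5, and 3 to 4 stayed without any other 1 library.

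The genes beside the 9 were tested. The 9 were chosen from measured values and left out, so the shares called among the rest may be lowered by that choice. Of 91 other annotated genes with a start within 1 Mb of that of Wnt3a, 32 passed the filter. In C/C against C/+, 1 of the 32 was called, higher in C/C, by edgeR's quasi-likelihood test at a Benjamini-Hochberg adjusted p under 0.05, a share of 3.12% against 7.08% of all tested genes. In C/C against WT, 1 of 32 was called, higher in C/C, against 2.98% of all tested genes. In C/+ against WT, 1 of 32 was called, lower in C/+, against 3.92% of all tested genes. The median log2 difference of the 32 was −0.0255 for C/C against C/+, 0.0919 for C/C against WT and 0.0885 for C/+ against WT, beside −0.00817, −0.026 and 0.00496 over all tested genes. At an unadjusted p under 0.05 there were 4, 4 and 3 of the 32. The share of all tested genes at this limit was not computed, here or for the sets below.

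The gene called against both groups was Rasd1, a Ras-related protein induced by glucocorticoids, 674 kb from Wnt3a. It stood at 25.6 and 28.5 CPM in C/C, 14.8, 12.1 and 7.70 CPM in C/+, and 6.64, 11.01 and 11.7 CPM in WT, with both C/C libraries above all others. The log2 difference was 1.22 (SE 0.274, adjusted p = 0.0233) for C/C against C/+ and 1.47 (SE 0.272, adjusted p = 0.0289) for C/C against WT. These calls ended without C/C 1 (adjusted p = 0.122 against C/+ and 0.178 against WT), without C/C 2 (0.16 and 0.21) or without C/+ 2 (0.0707 and 0.0527), and that against WT without WT 2 (0.0833). Srebf1, the regulator of lipid synthesis, 932 kb away, averaged 283 ± 27.8 CPM in C/+ and 380 ± 4.66 CPM in WT (SD, n = 3 each), a log2 difference of −0.42 (SE 0.0986, adjusted p = 0.0427 by edgeR's quasi-likelihood test). This call ended without any 1 of 7 libraries (adjusted p of 0.066 to 0.137) and held without C/+ 3. 2310033P09Rik, between 2610507I01Rik and Arf1, was not called in any comparison (adjusted p of 0.389 to 0.738).

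**Figure D4:**
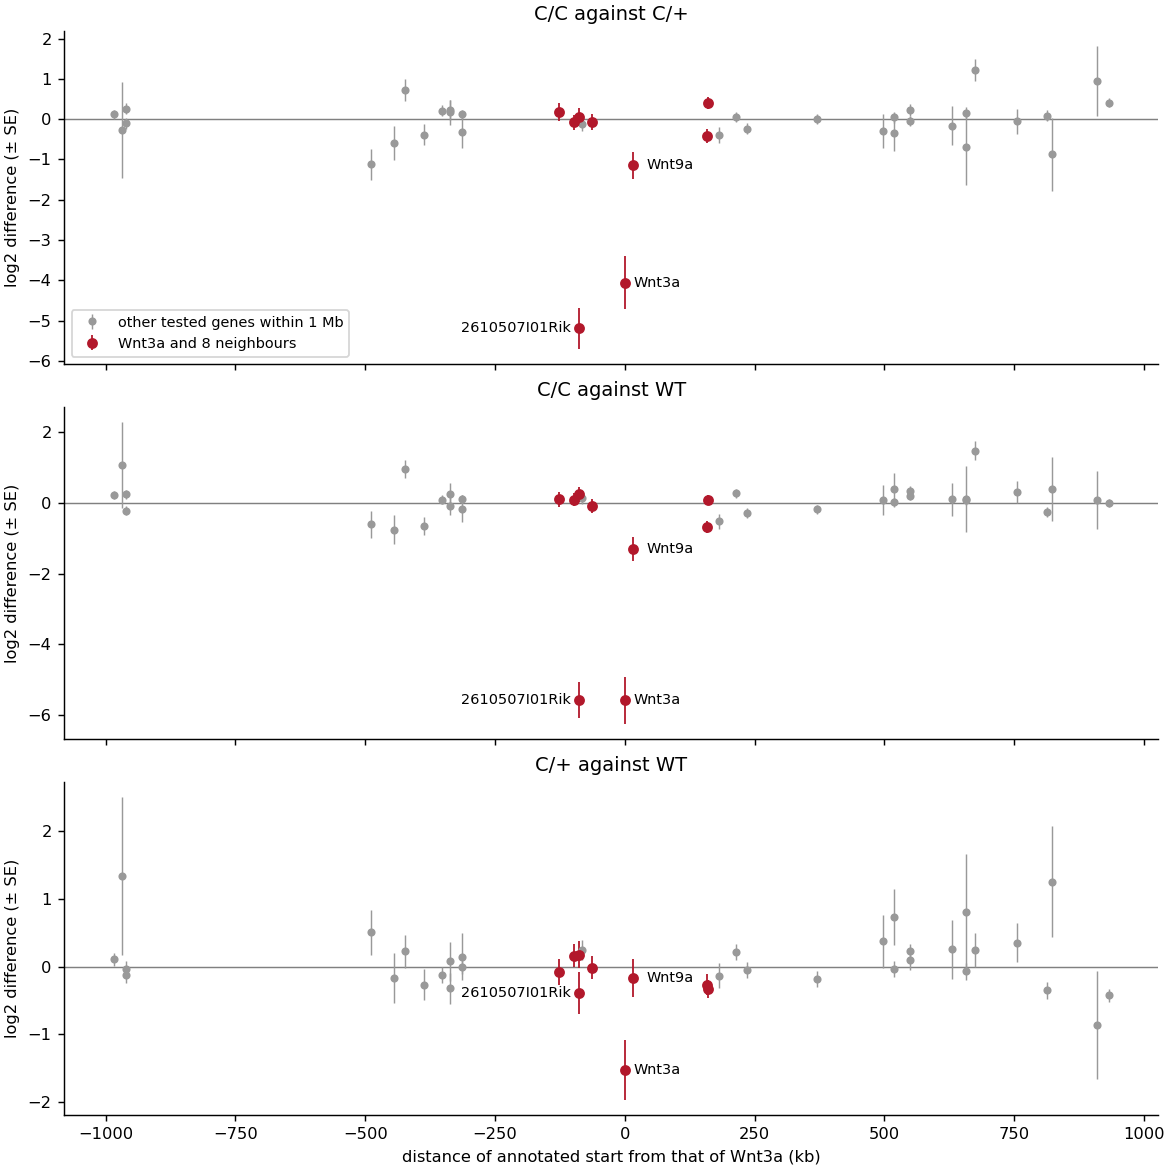
Fitted log2 difference ± SE against distance from the start of Wnt3a in kb, for the 9 genes (red) and the 32 other tested genes within 1 Mb (grey), with C/C against C/+ at the top, C/C against WT in the middle and C/+ against WT at the bottom. 2610507I01Rik and Wnt3a lie below −4 in both upper panels, and the grey points span −1.12 to 1.22 and −0.76 to 1.47 there.

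Of 17 further Wnt genes, Wnt7b alone exceeded 3 CPM in any library. Of these 17, 7 passed the filter, and 0 were called in any of the 3 comparisons by edgeR's quasi-likelihood test. At an unadjusted p under 0.05 there were 2 in C/C against C/+, 2 in C/C against WT and 1 in C/+ against WT. The DESeq2 Wald test called 2 (Wnt2 and Wnt5a), 1 (Wnt4) and 0 of them, each with the lower mean in C/C. In C/C against WT, 2 of the 7 were given no adjusted p by DESeq2. Wnt2 had 0 and 0 counts in C/C and 6, 7 and 6 counts in C/+. Over all 14906 tested genes DESeq2 called 1609, 1476 and 1263, the background for its counts below too. Wnt7b, a ligand made by lung epithelium in development, averaged 16.2 CPM in C/C, 11.1 CPM in C/+ and 14.6 CPM in WT, the highest count level of the 7. Wnt4 averaged 0.593 CPM in C/C, 1.26 CPM in C/+ and 2.35 CPM in WT, and Wnt11 averaged 0.786 CPM in C/C, 1.07 CPM in C/+ and 2.24 CPM in WT. Wnt5a averaged 0.204 CPM in C/C, 1.33 CPM in C/+ and 0.578 CPM in WT. Wnt7a, Wnt2 and Wnt2b stayed below 1 CPM in every library.

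Over 70 genes of the pathway (ligands, secretion, receptors, secreted inhibitors, transduction, targets), 50 passed the filter with Wnt3a and Wnt9a left out. Called were 5 of 50 in C/C against C/+ (10%, with 1 higher and 4 lower in C/C), 5 of 50 in C/C against WT (10%, with 1 higher and 4 lower) and 2 of 50 in C/+ against WT (4%, with 1 higher and 1 lower in C/+). The shares over all tested genes were 7.08%, 2.98% and 3.92%. The median log2 difference of the 50 was −0.00522 for C/C against C/+, −0.24 for C/C against WT and −0.14 for C/+ against WT. Without C/C 1 or without C/C 2, 0 of the 50 were called in C/C against either group, and without WT 2 the count in C/C against WT was 0 as well. The 11 intracellular transducers, beta-catenin, Axin1 and the Dishevelled genes among them, had 0 calls in all 3 comparisons, with 3, 3 and 1 at an unadjusted p under 0.05 and 0, 1 and 1 by DESeq2.

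Among receptors and inhibitors, Fzd4, a Frizzled receptor abundant in endothelium, averaged 1.30 CPM in C/C and 8.40 CPM in C/+, a log2 difference of −2.69 (SE 0.473, adjusted p = 0.00702 by edgeR's quasi-likelihood test). Fzd6 averaged 24.0 CPM in C/C and 42.6 CPM in C/+, a difference of −0.83 (adjusted p = 0.0113 by edgeR). The secreted inhibitors Sfrp1 and Sfrp2 were lower in C/C than in C/+, with log2 differences of −3.52 and −3.13 (adjusted p = 0.0242 and 0.035 by edgeR), and Sfrp2 was higher in C/+ than in WT by 3.44 (adjusted p = 0.0252). Sfrp2 averaged 0.451 CPM in C/C, 3.95 CPM in C/+ and 0.413 CPM in WT. The club, endothelial, mesothelial and mesenchymal sums above were highest in C/+ too, and their part in Fzd4, Sfrp1 and Sfrp2 was not tested. The Fzd4 and Fzd6 calls ended without C/C 1 (adjusted p = 0.0891 and 0.0997) or without C/C 2 (0.0894 and 0.128), those of Sfrp1 and Sfrp2 also without C/+ 1 (0.0792 and 0.116). Against WT, the Sfrp2 call ended without C/+ 1 (0.103), WT 1 (0.0568) or WT 3 (0.0782).

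Among targets, 1 of 12 tested was called in C/C against C/+ (8.33%, beside 7.08% of all genes), 3 of 12 in C/C against WT (25%, beside 2.98%) and 0 of 12 in C/+ against WT by edgeR's quasi-likelihood test, where 2 had an unadjusted p under 0.05. The DESeq2 Wald test called 3, 4 and 1 of the 12, beside 1609, 1476 and 1263 of all 14906 tested genes. Myc, a growth regulator and target, averaged 7.98 CPM in C/C, 4.23 CPM in C/+ and 4.21 CPM in WT, and was called in both C/C comparisons by DESeq2 but not by edgeR (adjusted p = 0.0852 and 0.0945). Axin2, the classical feedback target of beta-catenin, stood at 24.2 and 23.8 CPM in C/C, 32.3, 31.3 and 30.4 CPM in C/+, and 40.4, 37.5 and 32.6 CPM in WT. This was the order of Wnt3a with no overlap, an order whose share among all tested genes was not computed. Axin2 was lower in C/C than in WT by edgeR's quasi-likelihood test (log2 difference −0.62, SE 0.119, adjusted p = 0.0328). Its adjusted p was 0.0869 in C/C against C/+ and 0.252 in C/+ against WT. Sp5, a transcription factor gene that answers canonical Wnt signals, averaged 8.84 CPM in C/C, 14.6 CPM in C/+ and 18.6 CPM in WT, lower in C/C than in WT (−1.07, SE 0.215, adjusted p = 0.0362 by edgeR). Bambi, a membrane pseudoreceptor, moved the other way, averaging 96.7 CPM in C/C, 66.3 CPM in C/+ and 63.4 CPM in WT (0.54, adjusted p = 0.0134 against C/+, and 0.61, adjusted p = 0.0244 against WT, by edgeR).

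The remaining calls were Fzd7, at 59.7 CPM in C/C and 85.8 CPM in WT (−0.52, adjusted p = 0.0392 by edgeR), Wif1, a secreted inhibitor, at 0.400 CPM in C/C and 1.89 CPM in WT (−2.25, adjusted p = 0.048 by edgeR), and Notum, an enzyme that inactivates Wnt proteins, at 27.1 CPM in C/+ and 39.3 CPM in WT (−0.54, adjusted p = 0.0187 by edgeR). Each of the calls of C/C against WT ended without C/C 1 or without C/C 2, for Axin2 at an adjusted p of 0.252 and 0.25, for Sp5 at 0.239 and 0.25, for Fzd7 at 0.28 and 0.251, and for Wif1 at 0.332 and 0.194. Those of Bambi against WT reached 0.239 and 0.151, and against C/+ 0.172 and 0.0726. Without WT 2, the adjusted p in C/C against WT was 0.0971 for Axin2, 0.0999 for Sp5, 0.107 for Fzd7 and 0.094 for both Wif1 and Bambi. Other libraries ended single calls, C/+ 1 for Bambi against C/+ (0.0506), C/+ 2 for Axin2 (0.0527), Sp5 (0.0567) and Wif1 (0.0703), and WT 3 for Sp5 (0.0641), Fzd7 (0.0861) and Wif1 (0.106). Wif1 was also lost without WT 1 (0.0577), with sex as a covariate (0.0546) and with the 2 compared groups alone (0.0514), and both C/C libraries were female while WT 2 and WT 3 were male. The call of Notum was lost without C/+ 1 (0.0777), WT 2 (0.0704) or WT 3 (0.0695).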

How the data were processed

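Stranded mRNA libraries were made from RNA of sorted EpCAM+CD45- lung cells, per the labels' protocols. The authors deposited whole-number read counts per gene, not normalised, for 43432 mouse Ensembl identifiers in 8 libraries. The submitters' processing notes name STAR 2.4.2a, DESeq2 and the build GRCh38 without giving their roles; that build is human, and the identifiers are mouse ones. For the counting, the tool, its strand setting, its annotation and its treatment of reads matching several genes were not given in the sources used here. Symbols and positions came from GENCODE M21 on GRCm38 (42462 identifiers with a symbol and 970 without), and promoter sequences from RefSeq on GRCm38.p6.

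Genes were filtered with filterByExpr by group and scaled by TMM. All 8 libraries entered 1 quasi-likelihood model with a term for each group (edgeR 4.0.16, R 4.3.3), and genes with a two-sided Benjamini-Hochberg adjusted p under 0.05 over all 14906 tested genes were called. Log2 differences and SE are those of this fit. The spread between libraries sets the precision for genes above a few CPM, and Poisson intervals cover counting error only. No library was a copy of another of its group (chi-square per gene 12 to 72.4). Sex was read from Ddx3y at a limit of 1 CPM, since the labels give none.

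The 9 genes, the pathway and marker lists, the tests and the rule that names genes were chosen with earlier results of these data known. Named are the 9 genes, called genes within 1 Mb, from the pathway list up to 4 called genes per comparison by mean CPM and each ligand that passed the filter, and the 5 genes nearest to Wnt3a in profile. Where 5 or fewer pathway genes were called, all are named. Tried as alternatives were the Wald test and the size factors of DESeq2 1.42.0, testing without the low-count filter or with at least 1 CPM in 5 libraries, fitting only the groups compared, blocking by replicate number, a term for sex, windows of 0.5 and 2 Mb, other prior counts (0.5 and 5), division by the SD, and leaving out each library.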

Additional observations from a re-analysis of the deposited data

How the results depend on the processing

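The log2 difference of Wnt3a kept its sign under each alternative run. Leaving out 1 library gave −4.45 to −3.33 for C/C against C/+, −5.67 to −5.47 for C/C against WT and −2.27 to −1.14 for C/+ against WT. The counts of called genes depended more on the choices. Over all genes, leaving out 1 library gave 185 to 1308 calls in C/C against C/+ (1056 with all), 30 to 782 in C/C against WT (444 with all) and 103 to 729 in C/+ against WT (585 with all). Among the genes within 1 Mb these ranges were 0 to 2, 0 to 2 and 0 to 1, and among the pathway genes 0 to 9, 0 to 6 and 0 to 3. The DESeq2 Wald test called 1609, 1476 and 1263 genes in the 3 comparisons in this order, with 2 and 2 genes within 1 Mb in the first and second, and 13, 10 and 8 pathway genes. With no low-count filter there were 1614, 1456 and 1299 calls, with 3 and 2 genes within 1 Mb in the first and second, and 12, 10 and 6 pathway genes. DESeq2 size factors gave 2 genes within 1 Mb in C/C against C/+. A filter of 1 CPM in 5 libraries gave 0 genes within 1 Mb and 1 pathway gene in C/+ against WT. The 2 compared groups alone gave 2 genes within 1 Mb in C/C against WT, and 356 calls and 0 genes within 1 Mb in C/+ against WT. Sex as a covariate gave 1348 calls in C/C against WT and 1700 in C/+ against WT, 2 genes within 1 Mb in each comparison, and 8 pathway genes in C/+ against WT. Windows of 0.5 Mb held 0 called genes in each comparison, and windows of 2 Mb held 4, 3 and 2.

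The labels do not say whether replicate numbers pair the libraries. Deviations of same-numbered libraries from their group means correlated at −0.206 to 0.087, and those of differently numbered ones at −0.132 to 0.18. Within groups of 2 or 3 libraries the deviations are tied to each other, so these values cannot exclude a pairing. With the replicate block there were 176 calls in C/C against WT, 0 genes within 1 Mb in each comparison and 1 pathway gene in C/C against WT. Among named calls, those that ended with the block were Rasd1 against C/+ (adjusted p = 0.08) and against WT (0.0851), Srebf1 (0.0957), Sfrp2 in C/C against C/+ (0.0541), Axin2 (0.0534), Sp5 (0.0769), Fzd7 (0.1) and Wif1 (0.131), all by edgeR's quasi-likelihood test. The rank of 2610507I01Rik among the genes nearest to Wnt3a was 1 with other prior counts and DESeq2 size factors, 1 to 2 with 1 library left out, and 29 with each gene divided by its SD. With 2 C/C libraries, each omission of one leaves 1 that is assumed to vary like the other groups. At 9 to 14 counts in C/C, how far Wnt3a and 2610507I01Rik lie below the other groups is limited by depth.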

Other observations

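Rpl26, the ribosomal protein gene that came nearest to Wnt3a outside the 9 genes, lies on chromosome 11 from 68901583 to 68906989 in GENCODE M21 on GRCm38. It had 34 and 39 counts in C/C, 1463, 1848 and 378 in C/+, and 1439, 1276 and 3860 in WT. Its processed copy Gm15772, on chromosome 5 from 3236431 to 3236868 and 98.2% identical over 438 aligned bases, had 1768 and 1158 counts in C/C, 564, 5 and 240 in C/+, and 10, 2 and 4 in WT. The 2 genes thus ran in opposite directions across the groups, and C/+ 2, with 5 counts of the copy, was the C/+ library with the fewest. Scaled, Rpl26 in C/+ 2 stood at 86.2 CPM, above the 37.2 to 71.8 CPM of WT, in C/+ 1 at 47.8 CPM, within that range, and in C/+ 3 at 22.2 CPM, below it. The other 5 copies looked at, all over 90% identical to Rpl26, had 0 to 6 counts in each library. This comparison was chosen after the values were seen. Reads may be assigned to either of such near-identical genes, so their counts are uncertain, and the part of that in the difference was not tested. C/+ 2 was also the highest C/+ library for Wnt3a and for 2610507I01Rik.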
